A study of Oryctolagus cuniculus with 3 samples.

Results

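The genes described here are the 10 protein genes of rabbit mitochondrial DNA that encode subunits of respiratory complexes I, III and V. They were taken by symbol from the rows placed on the mitochondrial chromosome, and are 10 of the 15249 rows of the deposited table. 7 of them belong to complex I (MT-ND1, MT-ND2, MT-ND3, MT-ND4, MT-ND4L, MT-ND5 and MT-ND6), 1 to complex III (CYTB) and 2 to complex V (MT-ATP6 and MT-ATP8). RNA came from aortic media, the muscular middle coat of the vessel, of male JW/CSK rabbits aged 9 months. The first group carried a mouse PGC1-alpha gene and ate a high cholesterol diet for 20 weeks, the second was non-transgenic and ate the same diet, and the third was non-transgenic and ate chow. Each group is 1 library that pools RNA of 5 rabbits, so no value has a replicate error and no p-value was computed. Both cholesterol libraries ran on lane 2 and the chow library on lane 3, so lane and diet cannot be told apart. Which promoter drives the transgene, and in which cells, was not given in the sources used here.

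Complex I oxidises NADH and passes its electrons to ubiquinone, complex III hands them from ubiquinol to cytochrome c, and both pump protons that complex V uses to make ATP. Each complex is a mixture of subunits encoded in mitochondrial DNA and in the nucleus. Mitochondrial DNA is copied into long precursor RNAs that are cut mostly at tRNAs. Neighbouring messages of the same strand therefore share an origin, although messages cut from a shared precursor can still differ in stability. PGC-1alpha, a transcriptional coactivator, is known for driving mitochondrial biogenesis through nuclear factors that act on TFAM, the main activator of mitochondrial DNA transcription. Libraries were made from RNA captured on oligo(dT) beads, which takes messages with a poly(A) tail. In human cells the ND6 message is an exception among mitochondrial messages in having little or no such tail.

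FPKM scales the fragments of a gene to its length and to the library total, so levels of different genes can be set side by side. For short genes such a comparison depends on how length was corrected, which was not given. Differences are log2(FPKM + 1) of a library minus another, and a gene is counted when this difference reaches 1, which is 2-fold. The FPKM of all rows summed to 824460 in the cholesterol-fed transgenic library, 903706 in the cholesterol-fed non-transgenic library and 943181 in the chow library. The absolute depth is unknown. With chow as 1, relative depth was read as 1.251 for the transgenic and 1.285 for the cholesterol-fed non-transgenic library. It was read from genes above 0 and under 0.1 FPKM in both libraries compared. With ratios to chow scaled by that depth, 78.8% of 203 such genes for the transgenic library lay within 1% of a small whole-number ratio. For the non-transgenic cholesterol library it was 78.9% of 204. These are the same genes that the depth was read from. Mouse Ppargc1a was at 12.8 FPKM in the transgenic library and listed at 0 in both non-transgenic libraries, as the labels have it. Rabbit PPARGC1A was at 2.29, 1.76 and 1.18 FPKM in the cholesterol-fed transgenic, cholesterol-fed non-transgenic and chow libraries.

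On the cholesterol diet, most of the 10 genes were far more abundant than on chow, but by very unequal amounts. In non-transgenic rabbits 7 of 10 were 2-fold or more higher on the diet and none was 2-fold lower, where 15.9% of 11597 rabbit genes were 2-fold or more higher and 6.99% lower. The median difference of the 10 genes was 2.10 on the log2 scale, against 0.02 over all genes. The differences ran from 0.14 for MT-ND1 to 3.34 for MT-ATP8. With the transgene, compared with non-transgenic rabbits fed alike, no member differed by 2-fold in either direction, where 1.70% of all genes were 2-fold or more higher and 2.10% lower. The median difference there was -0.31, against -0.01 over all genes. In the transgenic library 7 of 10 members were lower, and by the sign of their median more of all genes were lower than higher too. Transgenic rabbits on the diet were above non-transgenic rabbits on chow in all 10 members, 6 of them by at least 2-fold (background 12.6%) and none 2-fold lower (background 2.53%), with a median of 1.79 against 0.01 over all genes. By the sign of that all-gene median, more of all genes were also higher than lower. Among the 4 members that overlap no other gene (MT-ND1, MT-ND2, MT-ND3 and CYTB), the median was -0.14 for the transgene and 1.49 for the diet. The 3 comparisons share libraries and are not independent of each other. Nor are the members, since neighbouring messages of the same strand are cut from shared precursor RNAs. All 10 members passed the filter of a mean of 1 FPKM over the 3 libraries that these backgrounds use.

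**Figure D1:**
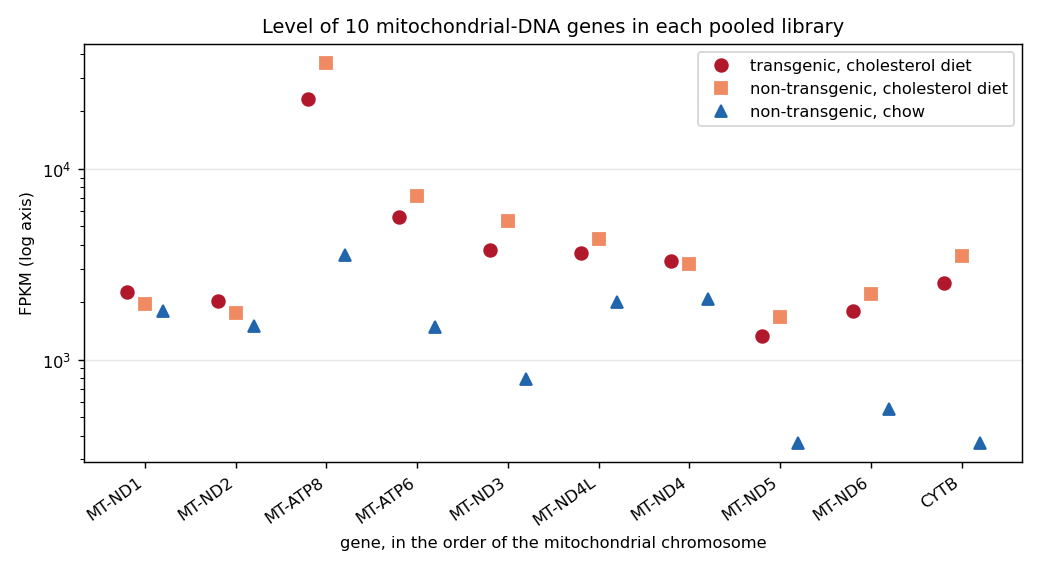
FPKM (log axis) of each of the 10 genes, in the order of the mitochondrial chromosome, with a circle for the cholesterol-fed transgenic library, a square for the cholesterol-fed non-transgenic library and a triangle for the chow library. The chow triangle is the lowest point of every gene, close to the others at MT-ND1 (2267, 1965 and 1788 FPKM) and far below them at CYTB (2506, 3495 and 366 FPKM).

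MT-ND1 (ENSOCUG00000029086, OryCun2.0 mitochondrial chromosome, 2749 to 3703) encodes the complex I subunit next to the ubiquinone site. It stood at 2267 FPKM in the cholesterol-fed transgenic library, 1965 in the cholesterol-fed non-transgenic library and 1788 in the chow library. The log2 difference was 0.21 for transgenic against non-transgenic and 0.14 for diet against chow, the smallest diet difference of the 10. MT-ND2 (3920 to 4963), the next gene along the chromosome and one of the proton-pumping subunits of the membrane arm, followed it closely, at 2029, 1759 and 1501 FPKM in the same order of libraries. Its differences were 0.21 for the transgene and 0.23 for the diet. Both genes were highest in the transgenic library, by margins far under 2-fold.

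MT-ND4 (10196 to 11573), a further proton-pumping subunit, was the other member with a small diet difference. It stood at 3269 FPKM in the cholesterol-fed transgenic library, 3153 in the cholesterol-fed non-transgenic library and 2084 in the chow library, a diet difference of 0.60 and a transgene difference of 0.05. MT-ND4L (9906 to 10202), a small membrane subunit, overlaps the start of MT-ND4 by 7 bp and is joined with it in 1 locus in the table. Its level was 3618, 4309 and 2002 FPKM in the same order. The diet difference of 1.11 lay just past 2-fold, and the transgene difference was -0.25. Merged by annotated length into 1 locus, MT-ND4L and MT-ND4 gave a diet difference of 0.70, under 2-fold. Their transgene difference was then -0.01. The transgenic library minus chow gave 0.85 for MT-ND4L, under 2-fold.

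The remaining complex I members were low on chow and several-fold higher on the diet. MT-ND3 (9491 to 9837), a small subunit with a loop near the ubiquinone site, stood at 3761 FPKM in the cholesterol-fed transgenic library, 5344 in the cholesterol-fed non-transgenic library and 788 in the chow library. That is 6.78 times the chow level in non-transgenic rabbits on the diet, a log2 difference of 2.76, and its transgene difference of -0.51 was the most negative within complex I. MT-ND5 (11772 to 13583), the longest gene of the 10 at 1812 bp and a proton-pumping subunit at the far end of the membrane arm, was at 1336, 1668 and 365 FPKM. Its differences were 2.19 for the diet and -0.32 for the transgene.

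MT-ND6 (13579 to 14103), a membrane subunit encoded on the opposite strand to the other 9 members in mammals, was at 1791 FPKM in the cholesterol-fed transgenic library, 2216 in the cholesterol-fed non-transgenic library and 548 in the chow library. The differences were 2.01 for the diet and -0.31 for the transgene, close to those of MT-ND5. The 2 genes overlap by 5 bp at their ends and stand in 1 locus in the table, and whether counting used strand was not given in the sources used here. Reads of MT-ND6 can therefore not be told apart from transcripts of the other strand over the same bases.

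CYTB (ENSOCUG00000029115, 14175 to 15313) encodes cytochrome b, the haem-carrying core of complex III and its only subunit from mitochondrial DNA. It was at 2506 FPKM in the cholesterol-fed transgenic library, 3495 in the cholesterol-fed non-transgenic library and 366 in the chow library. Non-transgenic rabbits on the diet thus had 9.55 times the chow level, and transgenic rabbits 6.85 times. The log2 differences were 3.25 and 2.77, and the transgenic library was at 0.717 times the non-transgenic one, a difference of -0.48. On chow, CYTB and MT-ND5 were the lowest of the 10 at almost the same level.

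MT-ATP8 (ENSOCUG00000029101, 7796 to 7999), a small membrane subunit of complex V, had the highest FPKM of the 10 genes in every library. It was at 23135 FPKM in the cholesterol-fed transgenic library, 35838 in the cholesterol-fed non-transgenic library and 3537 in the chow library. That placed it first of all 15249 rows in both cholesterol libraries and 35th on chow. Its differences were 3.34 for the diet, or 10.1 times the chow level, and -0.63 for the transgene, the largest of the 10 in size for both. MT-ATP6 (ENSOCUG00000029102, 7957 to 8636), subunit a, through which protons enter the rotor, was at 5588, 7235 and 1486 FPKM. It was 4.87 times as high on the diet as on chow in non-transgenic rabbits, a log2 difference of 2.28, and its transgene difference was -0.37.

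The MT-ATP8 gene is 204 bp long and shares 43 bp with MT-ATP6, so fragments of the shared message cannot be cleanly assigned. Taken as a single locus, weighting each FPKM by annotated length, the pair stood at 10130.2 FPKM in the cholesterol-fed transgenic library, 14543 in the cholesterol-fed non-transgenic library and 2059 in the chow library, a diet difference of 2.82 and a transgene difference of -0.52. FPKM of genes near or under the fragment length depends on how length was corrected, which was not given in the sources used here. For the members under 350 bp the diet difference was 3.34 for MT-ATP8, 2.76 for MT-ND3 and 1.11 for MT-ND4L. For longer members it was, for example, 3.25 for CYTB (1139 bp) and 0.23 for MT-ND2 (1044 bp), and the part of gene length in these differences was not tested.

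**Figure D2:**
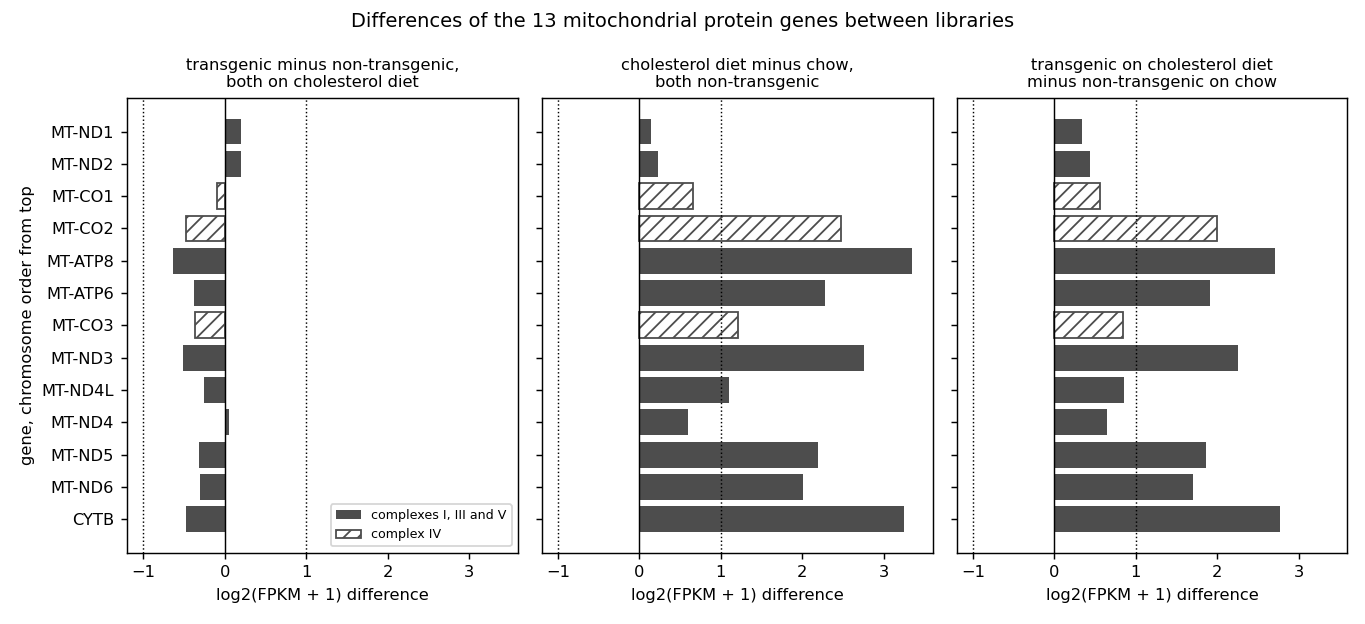
Difference in log2(FPKM + 1) between libraries for the 13 protein genes of mitochondrial DNA, in chromosome order from the top, with filled bars for complexes I, III and V, hatched bars for complex IV and dotted lines at 2-fold. In the diet panel the bars run from 0.14 at MT-ND1 to 3.34 at MT-ATP8, and in the transgene panel from -0.63 at MT-ATP8 to 0.21 at MT-ND1.

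Along the chromosome, the diet difference did not change evenly. It was small in MT-ND1 and MT-ND2, the first protein genes, high from MT-CO2 to MT-ATP6, lower in MT-CO3 (1.21), high again in MT-ND3, low in MT-ND4L and MT-ND4, and high from MT-ND5 to CYTB. The subunits of complex IV from mitochondrial DNA, the oxidase that reduces oxygen, spread over much of the same range. MT-CO1 was at 9489 FPKM in the cholesterol-fed transgenic library, 10092 in the cholesterol-fed non-transgenic library and 6403 in the chow library, a diet difference of 0.66. MT-CO2 was at 7728, 10738 and 1934 FPKM, a diet difference of 2.47, so genes of a single complex also differed unequally.

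Ratios between members within a library do not depend on the scaling between libraries, and show the same unevenness. CYTB was 1.11 times MT-ND1 in the cholesterol-fed transgenic library, 1.78 times in the cholesterol-fed non-transgenic library and 0.205 times in the chow library. MT-ND3 was 1.66, 2.72 and 0.441 times MT-ND1 in the same order. Neighbouring genes could keep a steadier ratio: MT-ND2 was 0.895, 0.895 and 0.840 times MT-ND1, and MT-ND6 was 1.34, 1.33 and 1.50 times MT-ND5. MT-ATP6 was 0.881 and 0.883 times its neighbour MT-CO3 in the transgenic and non-transgenic cholesterol libraries and 0.421 times on chow. Within complex I, the highest member was 2.82 times the lowest in the cholesterol-fed transgenic library, 3.20 times in the cholesterol-fed non-transgenic library and 5.71 times on chow, so levels of the complex I messages lay closer together on the diet.

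Against the geometric mean of the 3 complex IV genes, which was 7748 FPKM in the cholesterol-fed transgenic library, 9611 in the cholesterol-fed non-transgenic library and 3523 on chow, members shifted both ways. MT-ND1 was at 0.293, 0.204 and 0.507 of that mean, lower on the diet. MT-ND4 was likewise at 0.422, 0.328 and 0.592. CYTB was at 0.323, 0.364 and 0.104, and MT-ATP6 at 0.721, 0.753 and 0.422, both higher on the diet. MT-ND5 was nearly equal in the cholesterol libraries at 0.172 and 0.174, against 0.104 on chow.

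**Figure D3:**
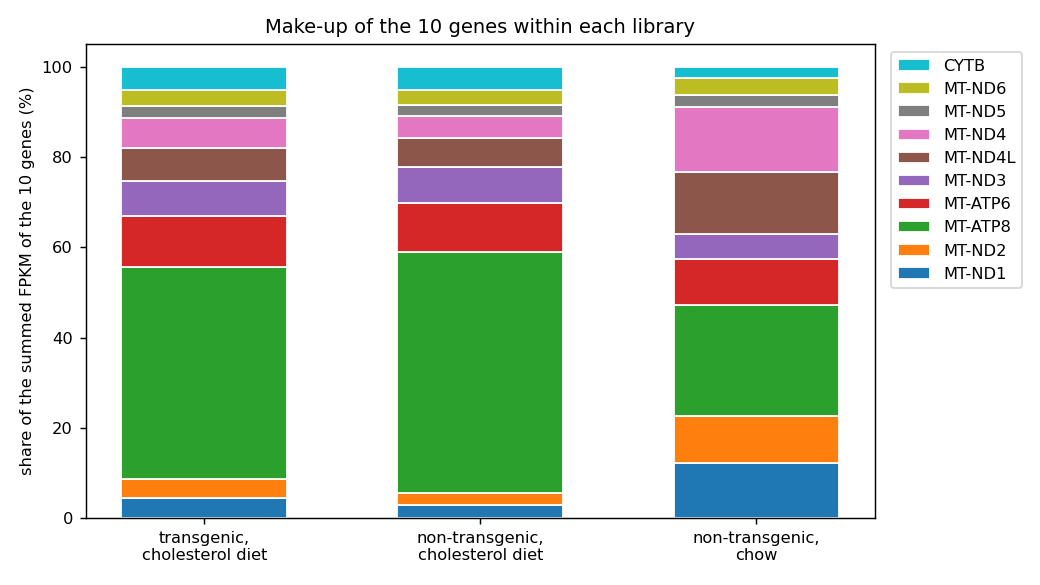
Share (%) of each gene in the summed FPKM of the 10 genes, as stacked bars for the cholesterol-fed transgenic, cholesterol-fed non-transgenic and chow libraries. MT-ATP8 makes up 46.9%, 53.5% and 24.4% of the bars, and MT-ND1 4.60%, 2.93% and 12.4%.

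Summed over the 10 genes, FPKM was 49300.5 in the cholesterol-fed transgenic library, 66982 in the cholesterol-fed non-transgenic library and 14466 in the chow library. This was 5.98%, 7.41% and 1.53% of the FPKM of all rows. MT-ATP8 held 46.9% of the members' sum in the transgenic and 53.5% in the cholesterol-fed non-transgenic library, against 24.4% on chow. Without it, the other 9 genes still made up 3.17% and 3.45% of all FPKM in the transgenic and non-transgenic cholesterol libraries, against 1.16% on chow. The order of levels changed as well, though the places of MT-ATP8, MT-ND3 and MT-ND4L, all under 350 bp, depend on the unknown length correction. On chow the sequence from the top was MT-ATP8, MT-ND4, MT-ND4L and MT-ND1, while in both cholesterol libraries it was MT-ATP8, MT-ATP6, MT-ND3 and MT-ND4L, and with 1 library per group it is unknown which neighbours in these orders differ beyond their spread.

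**Figure D4:**
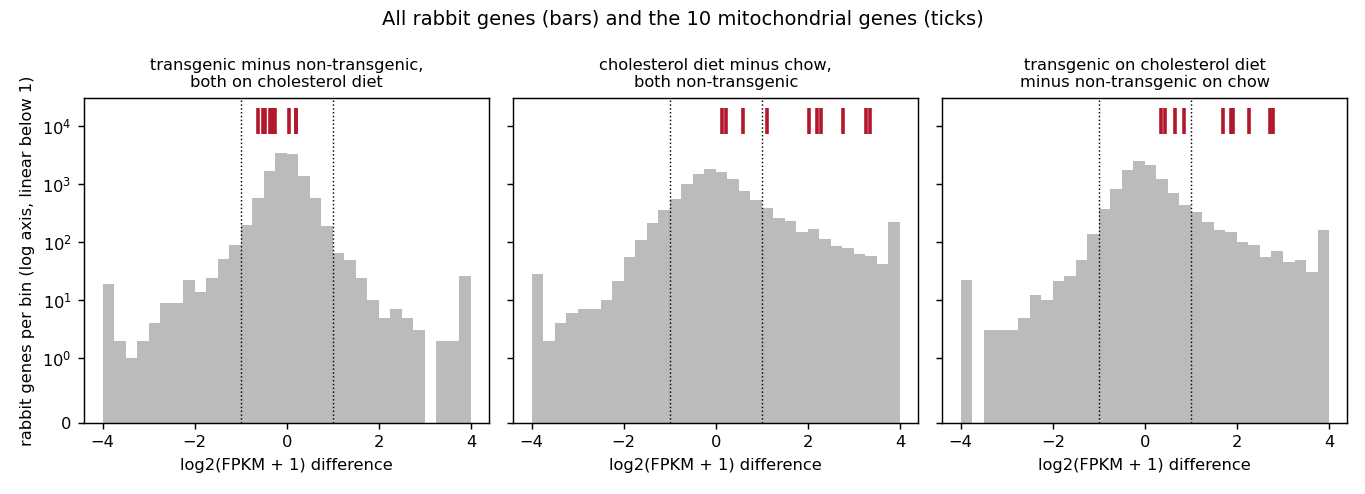
Number of rabbit genes (grey bars, log axis that is linear below 1) by log2(FPKM + 1) difference in bins of 0.25, with a red tick for each of the 10 genes and dotted lines at 2-fold; genes beyond 4 in either direction are in the end bins. In the diet panel 7 ticks lie right of the upper dotted line, and in the transgene panel all 10 lie between the lines.

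Nuclear genes of similar abundance gave another background. Of 130 nuclear rows with a mean of at least 1000 FPKM, which all 10 members also reach, 12.3% were 2-fold or more higher on the diet than on chow in non-transgenic rabbits and 19.2% lower, with a median of -0.09. In the transgenic against the non-transgenic library, 0.769% of the 130 were 2-fold or more higher and 2.31% lower. How reads that also match copies of mitochondrial DNA in nuclear chromosomes were counted was not given in the sources used here.

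Most nuclear partners of the same complexes differed by less than 2-fold between the libraries. Over all genes, 15.9% were 2-fold or more higher and 6.99% lower on the diet in non-transgenic rabbits. For the transgene 1.70% of all genes were higher and 2.10% lower, so few or none would be counted in lists this small. Of 37 names of nuclear complex I subunits 27 were found and 26 passed the filter, with none 2-fold or more higher on the diet, 1 lower (NDUFB7, listed at 0 in both cholesterol libraries) and a median of 0.04. The median for the transgene was -0.06, with none past 2-fold. NDUFS1, an iron-sulfur subunit of the arm that takes electrons from NADH, was at 40.6 FPKM in the cholesterol-fed transgenic library, 44.3 in the cholesterol-fed non-transgenic library and 40.5 in the chow library. NDUFC2, a membrane arm subunit, had the largest diet difference of those above 0 throughout, at 32.7, 38.1 and 19.8 FPKM.

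For complex III only 3 of 9 nuclear names were found. UQCRQ, a small subunit bound to cytochrome b, was at 194 FPKM in the cholesterol-fed transgenic library, 238 in the cholesterol-fed non-transgenic library and 108 in the chow library, a diet difference of 1.13 that passed 2-fold. The core subunit UQCRC1 was at 65.9, 65.8 and 64.4 FPKM. None of the 3 passed 2-fold for the transgene, with a median of -0.09. Of 18 nuclear complex V names 13 were found and 12 passed the filter, with none 2-fold or more higher on the diet, 1 lower (ATP5MJ, listed at 0 in the cholesterol-fed non-transgenic library) and a median of 0.20. ATP5MJ was also the member that passed 2-fold upward for the transgene, where the list's median was -0.14. ATP5F1B, the catalytic beta subunit, was at 392, 417 and 374 FPKM.

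**Figure D5:**
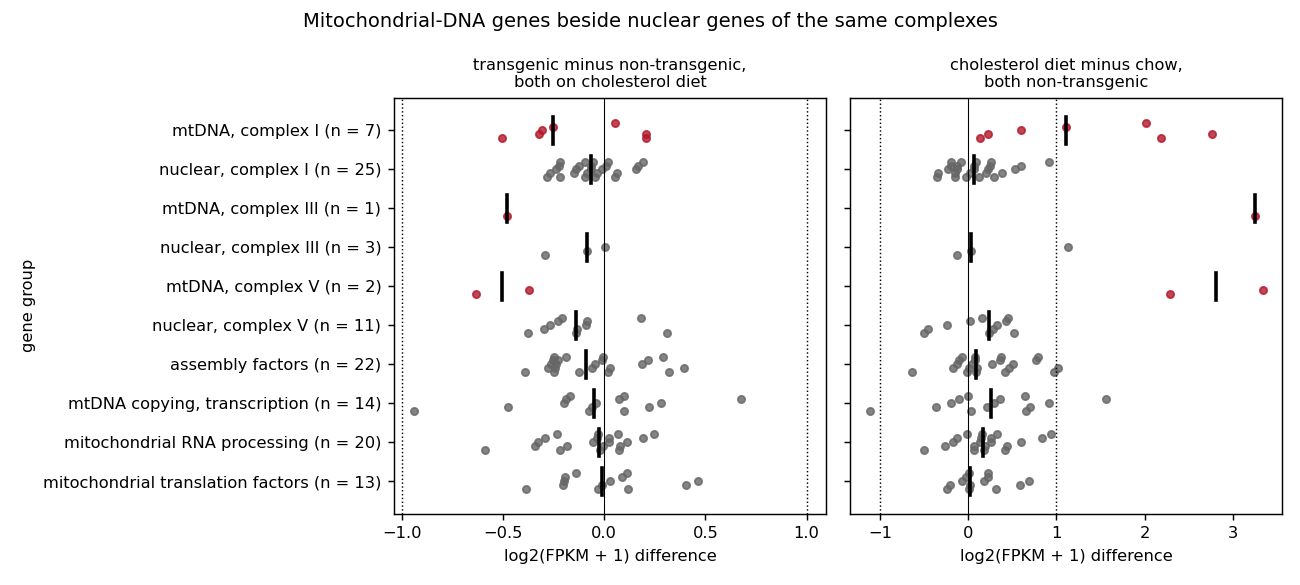
Difference in log2(FPKM + 1) of single genes above 0 in every library, by group, for transgenic minus non-transgenic on the cholesterol diet (left) and cholesterol diet minus chow in non-transgenic rabbits (right, on a wider axis); red points are the 10 mitochondrial-DNA genes, grey points nuclear genes, black lines group medians and dotted lines 2-fold. In the right panel the median is 1.11 for the 7 mitochondrial-DNA genes of complex I and 0.06 for the 25 nuclear ones drawn.

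Assembly factors and the machinery of mitochondrial gene expression showed few 2-fold differences on the diet on the log2(FPKM + 1) scale. The shares over all genes were 15.9% higher and 6.99% lower on the diet in non-transgenic rabbits. Of 22 assembly factors of complexes I, III and V found, 1 was 2-fold or more higher on the diet and none lower (median 0.09), namely ACAD9, which helps build complex I, at 8.26, 10.2 and 4.53 FPKM in the cholesterol-fed transgenic, cholesterol-fed non-transgenic and chow libraries. Of 14 genes for copying and transcribing mitochondrial DNA, 1 was higher and 1 lower (median 0.26). PRIMPOL, a primase-polymerase, was at 0.791, 2.44 and 0.166 FPKM, and MTERF2, of the mitochondrial termination factor family, at 11.3, 6.71 and 15.7. None of 20 RNA processing and turnover genes (median 0.17) or 13 translation factors (median 0.02) passed 2-fold in either direction on that scale. The pseudocount decided some of these calls: in plain FPKM ratios, NDUFAF2 (2.27 times chow), MTERF3 (2.06 times) and PDE12 (2.07 times) were also past 2-fold on the diet in non-transgenic rabbits. For transgenic rabbits on the diet against chow, the members past 2-fold on the log2(FPKM + 1) scale were NDUFAF2, which helps assemble complex I, at 1.30 and MTERF3, of the same family as MTERF2, at 1.19. PRIMPOL, at 0.62 on that scale, was also past 2-fold there in plain FPKM, at 4.77 times chow. Over all genes 12.6% were higher and 2.53% lower there. For the transgene no member of these lists passed 2-fold on that scale, which is close to the shares over all genes, 1.70% higher and 2.10% lower. The medians of these lists lay between -0.09 and -0.01, but PRIMPOL in the transgenic library was at 0.324 times its plain FPKM in the non-transgenic library.

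Among these factors, chosen after their values were seen, TFAM was at 7.46 FPKM in the cholesterol-fed transgenic library, 6.25 in the cholesterol-fed non-transgenic library and 8.34 in the chow library, differences of 0.22 for the transgene and -0.37 for the diet. TFB2M, which opens the promoter with the mitochondrial RNA polymerase, was at 10.2, 9.62 and 8.14 FPKM. LRPPRC, which binds and stabilises mitochondrial messages, was at 24.5, 24.7 and 23.5, and its partner SLIRP at 16.2, 20.03 and 16.6. MTPAP, the poly(A) polymerase of mitochondria, was at 11.2, 11.4 and 10.9. Each of these differed by less than 2-fold between any pair of libraries.

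Markers of cell types moved with the diet beside the mitochondrial genes. As background, 15.9% of all genes were 2-fold or more higher and 6.99% lower on the diet in non-transgenic rabbits. For the transgene these shares were 1.70% and 2.10%. All 10 macrophage and foam cell markers were 2-fold or more higher on the diet in non-transgenic rabbits, and their summed FPKM was 4031 in the cholesterol-fed transgenic library, 4604 in the cholesterol-fed non-transgenic library and 57.0 in the chow library, where MMP12 was listed at 0. Of 9 smooth muscle markers found, 8 were at least 2-fold lower on the diet, with sums of 16606, 12115 and 29424 FPKM and no marker at 0. ACTA2, the smooth muscle actin, alone was at 6594, 5161 and 12462 FPKM, so the labelled tissue carried its defining marker in every library. Endothelial markers (2 of 6 2-fold or more higher) summed to 141, 125 and 55.7 FPKM. CDH5 (0.93) and KDR (0.96) lay under the cut for the diet only through the pseudocount. In plain FPKM both were past 2-fold, at 12.0 against 5.84 on chow and 5.74 against 2.46. The 5 adventitial fibroblast markers summed to 790.5, 529 and 802 FPKM, with PI16 listed at 0 in the cholesterol-fed non-transgenic library. Without PI16 the fibroblast sums were 493, 529 and 391 FPKM, so the direction of the diet difference in the sum rests on that gene. Among the others, LUM was higher on the diet (2.11) and DPT lower (-1.11). Striated muscle markers (3 of 3 that passed the filter lower) summed to 172, 75.5 and 256 FPKM, and the erythroid markers, HBB and ALAS2, to 337, 107 and 38.2. In the transgenic against the non-transgenic library on the diet, the smooth muscle markers had a median difference of 0.55 with 9 of 9 higher and none by 2-fold, the macrophage markers -0.42 with 2 of 10 past 2-fold upward and 1 downward, and both erythroid markers were past 2-fold upward. The striated muscle markers had a median of 1.23 there with 3 of 3 higher and 2 past 2-fold. The fibroblast markers were split: PI16, from a listed 0, and DCN were past 2-fold upward, and DPT was higher (0.67). LUM (-0.92) and PDGFRA (-0.31) were lower, and without PI16 the fibroblast sum was 493 FPKM in the transgenic library against 529. The part of these shifts in cell content in the mitochondrial differences was not tested, and in bulk tissue fewer cells of a type and less RNA per cell cannot be told apart.

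By distance over the diet and transgene differences in the 3 libraries, the nuclear genes nearest to the median of the 10 members, among 8843 above 0 in every library with a mean of at least 5 FPKM, were SLC43A2, KIAA1522, SLC44A1, FMNL3 and TAP1. SLC43A2, an amino acid transporter, was at 23.1 FPKM in the cholesterol-fed transgenic library, 28.6 in the cholesterol-fed non-transgenic library and 5.95 in the chow library. TAP1, which carries peptides for antigen presentation, was at 16.7, 21.0 and 4.30. A match over 3 libraries is a weak one.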

How the data were processed

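RNA of 5 rabbits per group was pooled and enriched on oligo(dT) beads, per the labels' protocols, giving 3 libraries and no replicates. The authors deposited FPKM values for 15249 rows, per the file headers. Coordinates are on OryCun2.0, the build in the submitters' processing notes. Aligner, the program behind the FPKM values, any scaling and the use of strand were not given in the sources used here. Column numbers follow the labels, and all 1769 and 9933 comparable rows of the 2 further sheets held the same values under group names.

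Differences were log2(FPKM + 1), over 11597 of 15248 rabbit rows with a mean of at least 1 FPKM (Python 3.11.15, numpy 2.4.6, pandas 2.3.3). The difference and its counts were checked on simulated data with set folds and no noise, which tests the arithmetic only. A pseudocount understates changes of low genes. Alternatives were other pseudocounts, scalings and treatments of overlapping genes. Members and lists were chosen with earlier results of these data known. Named were all members, the other mitochondrial-DNA genes, list genes with the largest differences and the 5 nearest nuclear genes. Not all genes taken by this rule are described, and others were chosen after their values were seen.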

Additional observations from a re-analysis of the deposited data

How the results depend on the processing

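No member changed the sign of any of its differences under 6 alternatives, which were pseudocounts of 0.1, 5 and none, 2 rescalings and centring on the median of all genes. A pseudocount cannot change a sign, because the same amount is added to both libraries. Only the rescalings and the centring could have done so, and each shifts all members of a comparison by about the same amount. Rescaling each library to a common FPKM sum moved the median of all genes from -0.01 to 0.11 for transgenic against non-transgenic rabbits, and the median of the members to -0.18 there and to 1.98 for transgenic on the diet against chow. Rescaling on nuclear rows gave members' medians of -0.21 for the transgene, 2.28 for diet against chow and 2.08 for transgenic on the diet against chow, where the median of all genes was 0.08, 0.19 and 0.27. Both rescalings multiply every gene of a library by the same factor. For transgenic on the diet against chow, MT-ND4L lay between 0.85 and 1.14 and passed 2-fold only under these rescalings. Without MT-ATP8, MT-ATP6, MT-ND4L and MT-ND4, 4 of 6 members were 2-fold or more higher on the diet, and 4 of 7 with the 3 shared loci merged, an alternative chosen after seeing the data. With MT-ND5 and MT-ND6 also left out, likewise chosen afterwards, 4 genes remained. Of these, 2 were past 2-fold upward for diet against chow in non-transgenic rabbits, and 2 for transgenic on the diet against non-transgenic chow. In the latter comparison diet and genotype change together, as no transgenic library was on chow. The medians were -0.14 for the transgene, 1.49 for diet against chow and 1.34 for transgenic on the diet against chow. Over all genes, 15.9% were 2-fold or more higher for diet against chow and 12.6% for transgenic on the diet against chow. All of these alternatives have fewer genes. As a share of the 13 mitochondrial protein genes, the members made up 67.7%, 69.8% and 54.9% of FPKM in the cholesterol-fed transgenic, cholesterol-fed non-transgenic and chow libraries. No paired analysis was possible because each group has 1 pooled library. Absolute depth is unknown, so no counting interval could be given.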

Other observations

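2 further rows of the mitochondrial chromosome, which the table leaves unnamed, lie ahead of MT-ND1 and were the only mitochondrial rows lower on the diet in non-transgenic rabbits. ENSOCUG00000029082 (70 to 1026) was at 1138 FPKM in the cholesterol-fed transgenic library, 940.3 in the cholesterol-fed non-transgenic library and 1146 in the chow library, and ENSOCUG00000029084 (1093 to 2671) at 1434, 1151 and 1363. Their diet differences were -0.28 and -0.24 on the log2 scale, and their differences between transgenic and non-transgenic rabbits 0.27 and 0.32, both higher than in any of the 13 protein genes.

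2 nuclear subunits of complexes I and V were listed at 0 in some libraries at levels far above 0 in others. NDUFB7 was listed at 0 in both cholesterol libraries and at 3244 FPKM on chow. ATP5MJ was at 602 FPKM in the cholesterol-fed transgenic library, listed at 0 in the cholesterol-fed non-transgenic library and at 445 FPKM on chow. No fold is given against a listed 0.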
